A study of Homo sapiens with 6 samples.

Results

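The genes described here encode the surface receptor that defines a T cell. They are the constant regions of the receptor's alpha and beta chains (TRAC, TRBC1 and TRBC2), the CD3 chains that couple it to the signalling machinery (CD3D, CD3E, CD3G and CD247), the receptor-associated adaptor TRAT1, the coreceptor CD4 and the adhesion receptor CD2. These 10 genes were chosen by name, and all 10 were found among the 60856 features of the deposited tables. They were read in poly(A)-selected, strand-specific libraries of Jurkat, a human leukaemic T-lymphocyte line labelled wild type (WT). There were 3 libraries of cells given BPAF (bisphenol AF, a bisphenol A with fluorine in its bridge) at 1 µM and 3 of cells given the vehicle DMSO (dimethyl sulfoxide) at 0.1%. Exposure lasted 12 h by the sample labels and the design text and 24 h by the treatment protocol, and the replicates are described as biological. The series title places the study in estrogen signalling and inflammation.

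The alpha and beta chains recognise antigen and carry almost no cytoplasmic tail. CD3D and CD3G each pair with CD3E, and CD247 (the zeta chain) forms a dimer with itself, and the tails of these proteins hold the tyrosine motifs that LCK phosphorylates and ZAP70 binds. A receptor that lacks any of the chains largely fails to reach the surface, and Jurkat sublines without a beta chain have no receptor there. Each T cell joins 1 of the TRBC genes to its rearranged beta variable segment, and the Jurkat receptor is known to be built on TRAV8-4 and TRBV12-3.

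Library totals ran from 20253656 to 22617613 counts and overlapped between the groups, and the biological coefficient of variation was 3.77%. Of 15490 genes tested, 938 were called at an adjusted p under 0.05 (6.06%), 411 of them higher in BPAF (2.65%) and 527 lower (3.40%), in edgeR's quasi-likelihood test with Benjamini-Hochberg adjustment. All 10 of the T-cell markers looked for (CD3D, CD3E, CD3G, CD247, TRAC, CD2, CD5, CD7, LCK and PTPRC) passed the filter on low counts, in accord with the label of the line. Their summed level was 2477 to 2513 CPM (counts scaled by TMM to a common library size) in the BPAF libraries. In the DMSO libraries it was 2587 to 2604 CPM, without overlap, a separation seen in 24.8% of all tested genes. On deposited TPM, a scale added for this sum after seeing the data, it was 3026, 2954 and 2930.2 in BPAF and 2922, 2981 and 2830.1 in DMSO, which overlapped, with the BPAF mean the higher. None of the 10 was called by edgeR, against 6.06% of all genes tested, and 1 had an unadjusted p under 0.05, against 19.9%. DESeq2, which gave an adjusted p to 9 of them, and limma-voom called 0 as well. In bulk RNA, fewer cells of a type and less RNA per cell cannot be told apart. Markers of other cells summed to far less than the T-cell markers in both groups, though some of them passed the filter. Of 7 myeloid markers 0 passed the filter, with sums of 0.436 to 0.673 CPM in BPAF and 0.316 to 0.969 CPM in DMSO. The natural killer markers NCR1 and KLRF1 had a count of 0 in every library, and the 5 natural killer markers summed to 0.632 to 0.894 CPM in BPAF and 0.681 to 1.40 CPM in DMSO. Of the B-cell markers, CD79A averaged 12.2 CPM in BPAF and 13.8 CPM in DMSO, and MS4A1, CD79B and PAX5 had 2 counts or fewer in every library. The 5 erythroid and platelet markers summed to 14.3 to 17.3 CPM in BPAF and 16.1 to 17.4 CPM in DMSO. Of these 5, 3 passed the filter, as did 1 of 6 B-cell and 1 of 5 natural killer markers. Over all 6 libraries HBA1 averaged 43.7 TPM, HBB 39.6 TPM and CD79A 22.4 TPM, against 23.8 TPM for TRAC. The part of these markers in the results was not tested.

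None of the 10 receptor genes was called changed by BPAF: 0 of the 10 had an adjusted p under 0.05, against 6.06% of all genes tested (edgeR's quasi-likelihood test, Benjamini-Hochberg). DESeq2, which gave an adjusted p to 7 of them, and limma-voom called 0 as well. Their adjusted p-values ran from 0.154 for TRBC2 to 0.810 for CD2. The log2 fold change, BPAF over DMSO, was below 0 in 8 of the 10, against 49.2% of all genes tested, and above 0 in TRBC2 and CD2, while on log2 of the deposited TPM the values of CD3E, CD3G, CD247 and CD4 lay above 0. Its median over the 10 genes was -0.061, and over all tested genes 0.0019. The summed level of the 10 genes was 2155 to 2286 CPM in BPAF and 2228 to 2323 CPM in DMSO, which overlapped. A difference with an unadjusted p under 0.05 was found for 1 of the 10, TRBC2, against 19.9% of all genes tested. The 95% intervals of the fold changes bounded how large a difference could have gone uncalled. For 7 of the genes the interval lay within 1.2-fold in either direction, and it reached past that in TRAC, TRAT1 and CD4, the genes with the fewest counts. TRBC2 alone had an interval that did not include 0.

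**Figure D1:**
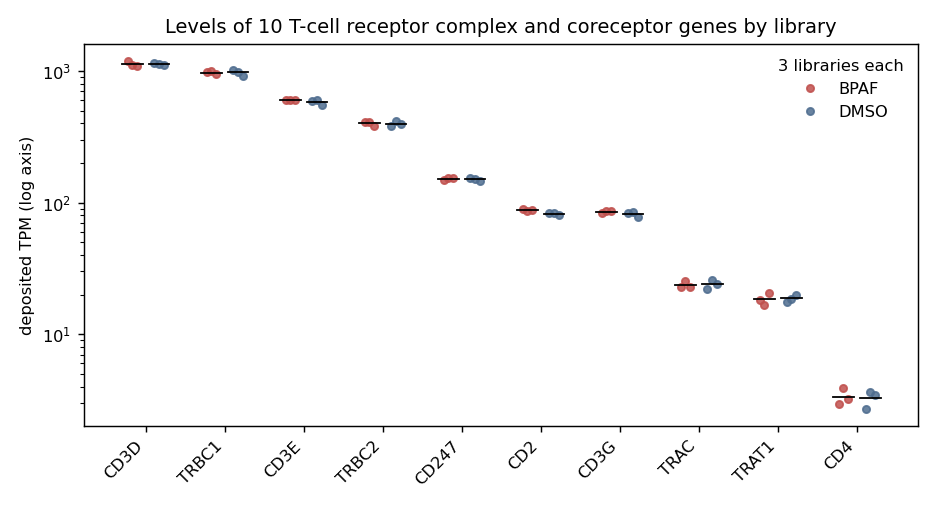
Deposited TPM (log axis) of the 10 genes in each library, with 3 BPAF libraries left of 3 DMSO libraries per gene and a bar at each group's mean. Levels run from 1131 TPM for CD3D to 3.31 TPM for CD4 (means of 6 libraries), and between genes they differ far more than between the groups.

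The receptor genes spanned a wide range of levels, and on deposited TPM their group means stood in the same order in BPAF and in DMSO. On the deposited TPM scale, which corrects for gene length, CD3D was highest at 1131 ± 34.3 TPM (SD, n = 6 libraries), followed by TRBC1 at 976 ± 35.1 TPM, CD3E at 593 ± 20.1 TPM and TRBC2 at 400.2 ± 15.2 TPM. CD247 averaged 151 ± 3.55 TPM, CD2 85.3 ± 3.56 TPM and CD3G 83.4 ± 2.99 TPM. TRAC lay much lower at 23.8 ± 1.54 TPM, ahead of TRAT1 at 18.6 ± 1.48 TPM and CD4 at 3.31 ± 0.44 TPM. The ranges of neighbouring genes over the 6 libraries overlapped only for CD2 and CD3G, so that pair has no order beyond its spread. A second length scaling, chosen after seeing the data, divided CPM by the annotated exon length. It put TRBC1 first with 887 ± 40.0 CPM per kb, TRBC2 second with 402 ± 20.3, and CD3D next with 388 ± 15.5 CPM per kb. On that scale TRBC2 and CD3D changed places between the groups, with TRBC2 at 415 and CD3D at 379.6 CPM per kb in BPAF and TRBC2 at 389.96 and CD3D at 396 CPM per kb in DMSO. The top of the order therefore depended on how length was counted, while CD3G, TRAC, TRAT1 and CD4 took the last 4 places on both scales.

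The CD3 genes CD3E, CD3D and CD3G lie together on chromosome 11 (GRCh38, GENCODE release 29). CD3E spans chr11:118304545-118316175 on the plus strand, CD3D chr11:118338954-118342744 on the minus strand and CD3G chr11:118344344-118355161 on the plus strand. The start sites of CD3D and CD3G face away from each other 1600 bases apart. The promoter of CD3D is printed because CD3D had the highest TPM of the set, and that of TRAT1, on chromosome 3, because TRAT1 had the lowest fitted fold change. Each runs from 250 bases before to 50 after the RefSeq start (GRCh38.p14), 5′ to 3′ on the strand of the gene, at chr11:118342656-118342955 (minus strand) and chr3:108822536-108822835 (plus strand). Capitals mark matches to the RUNX core TGTGGT and the GATA core AGATAA on either strand.
CD3D: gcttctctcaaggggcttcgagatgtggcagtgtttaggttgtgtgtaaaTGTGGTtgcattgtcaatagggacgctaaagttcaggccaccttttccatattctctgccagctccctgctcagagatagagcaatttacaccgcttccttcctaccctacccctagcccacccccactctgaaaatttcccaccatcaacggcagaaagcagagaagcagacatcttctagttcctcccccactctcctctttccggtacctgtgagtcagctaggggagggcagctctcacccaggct
TRAT1: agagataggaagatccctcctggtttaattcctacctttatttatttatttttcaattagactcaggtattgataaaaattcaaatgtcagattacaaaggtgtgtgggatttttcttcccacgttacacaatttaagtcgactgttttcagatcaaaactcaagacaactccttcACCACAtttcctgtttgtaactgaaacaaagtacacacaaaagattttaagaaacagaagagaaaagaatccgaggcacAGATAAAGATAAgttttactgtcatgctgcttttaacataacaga
CD3D held 1 match to TGTGGT and TRAT1 held 1, read on the opposite strand as ACCACA, against 13.1% of 35116 RefSeq promoters with at least 1. TRAT1 also held 2 adjacent matches to AGATAA, a word present in 10.3% of promoters. No TATA box TATAAA (in 11.5% of promoters) and no E-box CAGCTG (17.9%) was found in the windows of CD3D, CD247, TRAT1 or CD2. These were the 4 members with a promoter entry. CD247 held 1 match to another E-box, CAGGTG (20.6% of promoters), and 1 to the ETS core GGAAGT (22.8%), and CD3D, TRAT1 and CD2 held none of either. These matches describe letters in a window and say nothing of what binds there.

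CD3E, the chain shared by both CD3 pairs, had 489, 496 and 485 CPM in the BPAF libraries, against 508, 501 and 485 CPM in the DMSO libraries. The groups overlapped, and no other receptor gene varied less across the 6 libraries (coefficient of variation 1.86%). Its log2 fold change was -0.023 ± 0.028 (SE; adjusted p = 0.724, edgeR). CD3D, the delta chain, had 359, 362 and 337 CPM in the BPAF libraries, against 382, 358 and 363 CPM in the DMSO libraries. The third BPAF library was the lowest and the first DMSO library the highest, and the groups overlapped. The log2 fold change of CD3D was -0.061 ± 0.033 (adjusted p = 0.322, edgeR). CD3G, the gamma chain, whose tail also carries a motif for receptor internalisation, had 136, 145 and 138 CPM in BPAF, against 144, 144 and 141 CPM in DMSO. The second BPAF library was the highest of all 6 and the first the lowest. Its log2 fold change was -0.037 ± 0.034 (adjusted p = 0.608, edgeR).

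CD247 was the only one of the 10 genes whose groups did not overlap in CPM, a separation seen in 24.8% of all tested genes. This chain contributes most of the tyrosine motifs of the complex, and its gene lies apart from the others on chromosome 1 (chr1:167430640-167518610, minus strand). It had 149.7, 156 and 153 CPM in the BPAF libraries, against 162, 157 and 158 CPM in the DMSO libraries. All 3 BPAF values lay below all 3 DMSO values, by little: means were 153 ± 3.04 CPM in BPAF and 159 ± 2.68 CPM in DMSO (SD, n = 3 each). The log2 fold change was -0.062 ± 0.032 with a 95% interval from -0.13 to 0.0049 (unadjusted p = 0.0676, adjusted p = 0.294, edgeR). On the deposited TPM the CD247 groups overlapped, at 148, 154 and 153 TPM in BPAF and 155, 151 and 146 TPM in DMSO. The introns of CD247 hold 2 non-coding genes, with 0 to 4 counts per library and no shared exon.

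Ratios within a library do not depend on how libraries are scaled, so the balance of the CD3 chains was compared that way. The log2 ratio of CD3D to CD3E in CPM was -0.48 ± 0.043 in BPAF and -0.44 ± 0.040 in DMSO, that of CD3G to CD3E -1.81 ± 0.035 in BPAF and -1.80 ± 0.022 in DMSO, and that of CD247 to CD3E -1.68 ± 0.024 in BPAF and -1.64 ± 0.028 in DMSO (SD, n = 3 each). Groups overlapped in all 3 ratios. Two-sided exact permutation p-values were 0.4 for CD3D, 0.6 for CD3G and 0.2 for CD247, each 0.60 after adjustment over the 3 ratios, where 3 libraries against 3 allow no p below 0.1.

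**Figure D2:**
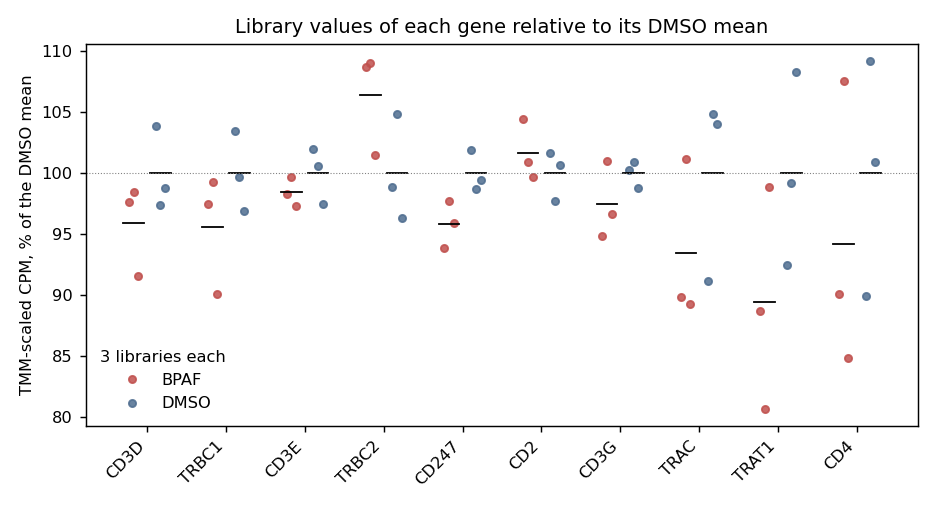
TMM-scaled CPM of each gene in each library as a percentage of that gene's DMSO mean, with BPAF libraries left of DMSO libraries, a bar at each group mean and a dotted line at the DMSO mean. Points of the groups interleave for 9 of the 10 genes, CD247 is the exception, and the spread is widest for TRAT1 and CD4.

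The beta-chain constant genes, of which TRBC1 had the highest CPM of the 10 genes, had fitted changes of opposite sign, neither past the test. TRBC1 and TRBC2 lie on chromosome 7 (chr7:142791694-142793368 and chr7:142801041-142802748, both on the plus strand) with starts 9347 bases apart, and encode nearly the same protein. Of all 50-base windows of the 760-base TRBC1 transcript, 23.5% occur exactly in TRBC2, as do 11.2% of 100-base and 3.9% of 150-base windows. Counts for both genes carried decimals in all 6 libraries, as did those of CD3D, whereas CD3E, CD247, TRAC, TRAT1, CD4 and CD2 had whole counts throughout. The sources used here do not say how reads shared by the beta genes were divided, and the level of either gene alone is uncertain.

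TRBC1 had 672, 684 and 621 CPM in the BPAF libraries, against 713, 687 and 668 CPM in the DMSO libraries. The third BPAF library was the lowest, the first DMSO library the highest, and the groups overlapped. Its log2 fold change was -0.065 ± 0.035 (adjusted p = 0.328, edgeR). TRBC2 had 321, 322 and 300.1 CPM in the BPAF libraries, against 292, 309.9 and 285 CPM in the DMSO libraries. The second DMSO library lay above the third BPAF library, so these groups overlapped as well. The log2 fold change of TRBC2 was 0.089 ± 0.035, with a 95% interval from 0.015 to 0.16 (unadjusted p = 0.0207, adjusted p = 0.154, edgeR).

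Summed, the beta constant genes had 993, 1006 and 921 CPM in BPAF, against 1005, 997 and 953 CPM in DMSO. The sums overlapped, with means of 974 ± 45.9 CPM in BPAF and 985 ± 28.0 CPM in DMSO (SD, n = 3 each, two-sided exact permutation p = 0.7). The division of the signal between the genes was set beside the sum. TRBC1 took 67.6, 68.0 and 67.4% of their summed counts in BPAF, against 70.9, 68.9 and 70.1% in DMSO. All BPAF shares lay below all DMSO shares, with means of 67.7 ± 0.28% in BPAF and 70.0 ± 1.01% in DMSO and the smallest p that 3 against 3 allows (two-sided exact permutation p = 0.1). The same share in the deposited TPM was 70.5, 70.9 and 71.0% in BPAF and 72.6, 70.3 and 70.2% in DMSO. There the groups overlapped, and the means of 70.8 ± 0.26% in BPAF and 71.0 ± 1.37% in DMSO differed by less than the spread between libraries (two-sided exact permutation p = 1). The shares of the groups were thus apart on only 1 of the deposited scales.

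**Figure D3:**
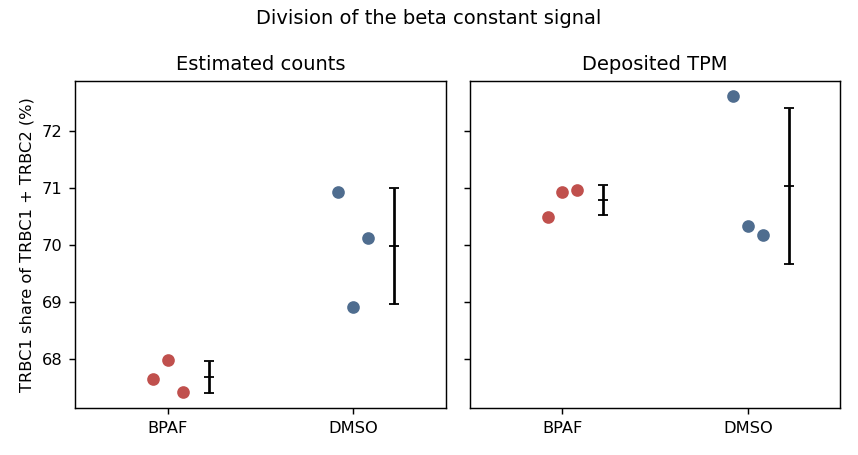
TRBC1 as a percentage of TRBC1 plus TRBC2 in each library, from the deposited counts (left) and the deposited TPM (right), with BPAF left of DMSO, a dot per library and bars for the mean ± SD of 3 libraries; the axis does not start at 0. In the counts the BPAF libraries lie at 67.4 to 68.0% and the DMSO libraries at 68.9 to 70.9%, and in the TPM they overlap.

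TRAC, the only alpha constant gene, was far below the beta constants in both groups. It had 273, 290 and 288 counts in the BPAF libraries, against 280, 303 and 300 counts in the DMSO libraries. In CPM these were 12.6, 14.2 and 12.5 in BPAF and 12.8, 14.7 and 14.6 in DMSO, which overlapped. Its log2 fold change was -0.098 ± 0.092, with a 95% interval from -0.29 to 0.094 (adjusted p = 0.619, edgeR). TRBC1 plus TRBC2 held 74.3 ± 4.02 times the counts of TRAC in BPAF and 70.4 ± 7.05 times in DMSO (SD, n = 3 each, two-sided exact permutation p = 0.4). The ratio remained large on both length scales. It was 58.1 ± 2.73 in BPAF and 57.7 ± 4.99 in DMSO in TPM, and 95.5 ± 5.17 in BPAF and 90.5 ± 9.06 in DMSO in CPM per kb of exon, the scale chosen after seeing the data. TRAC spans chr14:22547506-22552154 on the plus strand, with no other annotated gene overlapping it. Why the alpha constant is so low was not tested.

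Among the variable segments, those of the known Jurkat receptor led their loci. TRBV12-3 took 94.97 ± 0.37% of all TRBV counts in BPAF and 95.5 ± 0.82% in DMSO (SD, n = 3 each), and 44 of the 67 TRBV features had a count of 0 in every library. It had 270, 265 and 261 CPM in the BPAF libraries, against 299, 269 and 278 CPM in the DMSO libraries. These overlapped between BPAF replicate 1 and DMSO replicate 2, and the log2 fold change was -0.089 ± 0.035 (adjusted p = 0.147, edgeR, and 0.0438 without DMSO replicate 2). On TPM, where its mean was 3289, the groups did not overlap, at 3124 ± 97.4 TPM in BPAF and 3454 ± 75.4 TPM in DMSO. Per kb of annotated exon its mean was only 669.6 CPM, against 887 for TRBC1, so the level of TRBV12-3 relative to the constant genes depended on the scale. TRBV12-3 counts came to 27.3 ± 0.96% of the TRBC1 plus TRBC2 counts in BPAF and 28.7 ± 1.44% in DMSO (two-sided exact permutation p = 0.3). The paralogue TRBV12-4 contains 42.5% of the 50-base windows of TRBV12-3, so reads of this segment may be shared. Unlike those of TRBC1 and TRBC2, however, the counts of TRBV12-3 were whole in all 6 libraries.

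TRAV8-4 led the alpha locus with 66.4 ± 1.74% of TRAV counts in BPAF and 61.5 ± 1.11% in DMSO, from totals of only 204 to 249 TRAV counts per library. These shares, 60.6 to 68.4% over the 6 libraries, lay apart between the groups, and their difference was not tested. The TRAV8-4 counts themselves overlapped, at 147, 133 and 137 in BPAF and 152, 143 and 134 in DMSO. Its log2 fold change was -0.085 ± 0.125 (adjusted p = 0.778, edgeR). Its counts came to 49.1 ± 4.21% of those of TRAC in BPAF and 48.7 ± 4.99% in DMSO (two-sided exact permutation p = 0.9). TRAV19 was next among the alpha segments by TPM, with 35.0 to 56.6 counts in BPAF and 59.0 to 75.5 in DMSO (log2 fold change -0.53 ± 0.22, adjusted p = 0.186, edgeR), and TRAV18 had at most 27.0 counts. TRBV7-2 and TRBV28, the beta segments next to TRBV12-3 by TPM, had at most 145 and 25 counts. All 60 TRAJ and 13 of the 14 TRBJ features had a count of 0 in every library, and TRBJ totals were at most 0.92 counts. Over the alpha, beta, gamma and delta loci, 226 segment features were listed, 181 of them at 0 in every library. Of the 11 tested, edgeR called 0, against 6.06% of all genes tested, and 4 had an unadjusted p under 0.05, against 19.9%. Limma-voom called 0 of the 11, and DESeq2 gave an adjusted p to only 1 and called 0.

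Of the other receptor lineage, all 4 TRDJ features had a count of 0. Joining features had almost no counts in the beta locus either, so those zeros do not bound the delta locus. The delta constant TRDC and all 3 TRDV features also had a count of 0. For each TRDV feature that allows at most 0.133 to 0.148 CPM per library (3 counts over the unscaled library total, counting error only). TRDC shares exon sequence with AC244502.1 on the opposite strand, which had 1 to 7 counts per library. How reads of such shared sequence were assigned is not known, so the same bound is not given for TRDC. The gamma locus gave reads nonetheless. TRGV4, its leading variable segment, had 13.3, 13.1 and 12.5 CPM in BPAF, against 10.0, 11.8 and 9.80 CPM in DMSO. Those groups did not overlap, and the log2 fold change was 0.30 ± 0.099 without passing the test (adjusted p = 0.0809, edgeR, and 0.0400 without DMSO replicate 2). TRGV3 had 6.73 to 8.94 CPM in BPAF and 6.47 to 6.77 CPM in DMSO (log2 fold change 0.27, adjusted p = 0.249, edgeR), and TRGV5 3.67 to 5.12 CPM in BPAF and 4.18 to 5.37 CPM in DMSO. All 3 lie within introns of TRG-AS1 on the opposite strand, which had 569, 546 and 599 counts in BPAF and 515, 509 and 503 in DMSO. The sources used here do not say whether the counting used strand, and the segments and TRG-AS1 cannot be told apart with certainty. The gamma constants were near absent: TRGC1 had at most 4.02 counts, and TRGC2 23, 8.02 and 15 in BPAF and 21.0, 23 and 25.1 in DMSO.

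**Figure D4:**
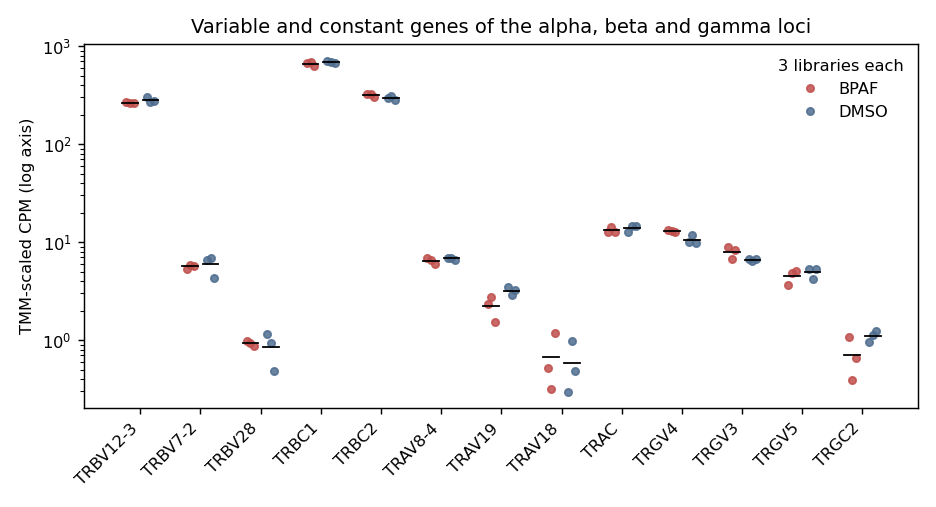
TMM-scaled CPM (log axis) of the leading variable and the constant genes of the beta, alpha and gamma loci in each library, with BPAF left of DMSO and a bar at each group mean. TRBC1, TRBC2 and TRBV12-3 stand far above the other genes, among which TRAC and TRGV4 are highest, and the groups lie close together except for the genes of lowest count.

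TRAT1, an adaptor that stabilises the receptor complex at the surface, had the lowest fitted fold change of the set. It had 18.9, 17.2 and 21.1 CPM in the BPAF libraries, against 19.7, 21.2 and 23.1 CPM in the DMSO libraries. The third BPAF library lay above the first DMSO library, so the groups overlapped, and the highest library exceeded the lowest by 1.34-fold. The log2 fold change was -0.16 ± 0.084, with a 95% interval from -0.33 to 0.018 (adjusted p = 0.312, edgeR).

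CD4, the coreceptor that binds class II molecules of the major histocompatibility complex and brings LCK to the receptor, was the lowest of the 10 genes. It had 112, 126 and 112 counts in BPAF, against 113, 129 and 119 counts in DMSO, nearly the same range. In CPM this was 5.41 ± 0.68 in BPAF and 5.75 ± 0.55 in DMSO (SD, n = 3 each), and the log2 fold change was -0.088 ± 0.146, with a 95% interval from -0.39 to 0.22 (adjusted p = 0.807, edgeR). The chains of the other coreceptor had fewer counts still. CD8A had 15, 37 and 34 counts in BPAF and 16, 15 and 15 in DMSO, and CD8B 10, 20 and 23 in BPAF and 31, 8 and 13 in DMSO. The first BPAF library lay with the DMSO libraries for CD8A, the groups overlapped, and neither gene passed the test. For CD8A the log2 fold change was 0.86 ± 0.36, with a 95% interval from 0.10 to 1.61 (unadjusted p = 0.0279, adjusted p = 0.181, edgeR). By TPM, CD8B at 3.60 in BPAF and 3.57 in DMSO was not below CD4 at 3.36 in BPAF and 3.26 in DMSO. PTCRA, the surrogate alpha chain of immature thymocytes, had 38, 50 and 40 counts in BPAF, against 39, 40 and 56 in DMSO.

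CD2, which binds CD58 on the partner cell, was 1 of the 2 genes with a fitted change above 0. It had 86.4, 83.6 and 82.5 CPM in the BPAF libraries, against 84.2, 80.9 and 83.3 CPM in the DMSO libraries, which overlapped. The log2 fold change was 0.024 ± 0.040, with a 95% interval from -0.059 to 0.107 (adjusted p = 0.810, edgeR). In the deposited TPM the CD2 groups separated, at 89.9, 87.1 and 88.0 TPM in BPAF and 83.5, 82.8 and 80.7 TPM in DMSO. CD3E separated there too, at 604, 604 and 603 TPM in BPAF and 596, 599 and 552 TPM in DMSO. These were 2 of the 10 receptor genes, against 24.5% of all tested genes on that scale. On log2(TPM + 1) the median change of all tested genes was itself 0.078, against 0.0019 on the counts, and CD3E at 0.052 lay below that shift while CD2 at 0.10 lay above it.

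**Figure D5:**
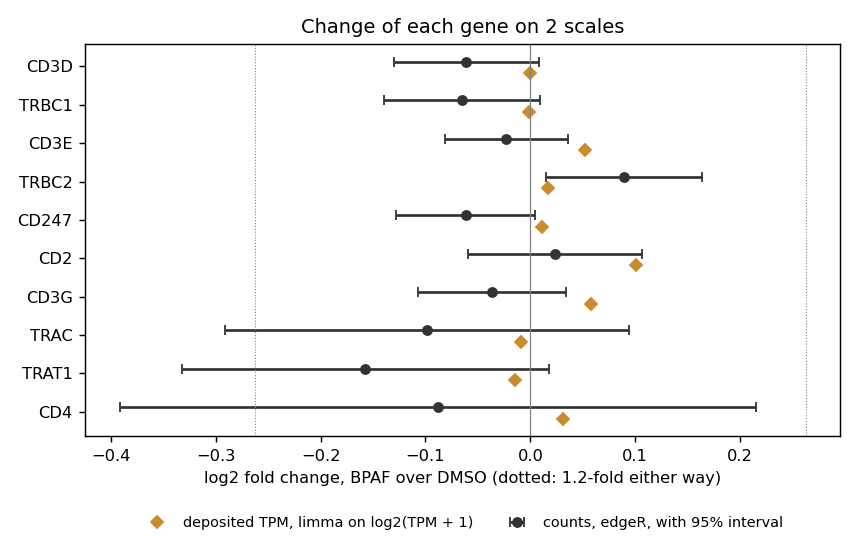
Log2 fold change of each gene, BPAF over DMSO, from the counts (circles with 95% intervals) and from log2 of the deposited TPM plus 1 (diamonds), with a solid line at 0 and dotted lines at 1.2-fold in either direction. On the counts all intervals but that of TRBC2 include 0, and every gene but TRBC2 has its TPM value to the right of its count value.

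The genes that act around the receptor were described from 4 lists. Among 18 coreceptor and surface genes, all tested, 1 rose and 0 fell, with a median log2 fold change of -0.029, against 0.0019 over all tested genes. The gene that rose was SPN, which encodes CD43, the large sialoglycoprotein of the T-cell surface. It had 132, 123 and 135 CPM in BPAF, against 113, 113 and 113 CPM in DMSO (log2 fold change 0.20 ± 0.038, adjusted p = 0.00309, edgeR), and every BPAF library lay above every DMSO library. Among 39 genes of proximal receptor signalling, 38 were tested, 0 rose and 1 fell, with a median of -0.022. That gene was SIT1, a transmembrane adaptor known to restrain receptor signalling, with 33.1, 34.6 and 34.7 CPM in BPAF, against 37.9, 40.7 and 43.6 CPM in DMSO. SIT1 had a log2 fold change of -0.25 ± 0.059 (adjusted p = 0.0140, edgeR) and no overlap between groups. With BPAF replicate 1 left out its adjusted p was 0.0853, and with DMSO replicate 3 left out 0.0672.

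Among 23 regulators of receptor gene transcription, 22 were tested and 0 were called (edgeR), 2 of them with an unadjusted p under 0.05, and their median was -0.026. ELF1, an ETS factor, had the smallest p (106 ± 4.74 CPM in BPAF, 114 ± 1.55 CPM in DMSO, adjusted p = 0.0847, and 0.0465 without BPAF replicate 3), followed by MYB (474 ± 17.05 CPM in BPAF, 501 ± 8.24 CPM in DMSO, adjusted p = 0.134). Among 19 genes of chain assembly and quality control in the endoplasmic reticulum, all tested, 0 rose and 1 fell, with a median of -0.047. HSPA5, the chaperone BiP, fell, with 638, 669 and 689 CPM in BPAF, against 721, 725 and 800.3 CPM in DMSO (log2 fold change -0.17 ± 0.041, adjusted p = 0.0282, edgeR). HSPA5 groups did not overlap, and its adjusted p was 0.107 without BPAF replicate 1 and 0.0850 without BPAF replicate 2. With 1 of 18, 1 of 38, 0 of 22 and 1 of 19 tested genes called by edgeR, the lists stood near or below the 6.06% of all genes tested. An unadjusted p under 0.05 was found for 4 of 18, 5 of 38, 2 of 22 and 7 of 19, against 19.9% of all genes tested. A fold change below 0 was found for 14 of 18, 25 of 38, 15 of 22 and 16 of 19, against 49.2%. In the same order of lists, DESeq2 called 1 of 10, 1 of 29, 0 of 18 and 2 of 19 genes that it gave an adjusted p. Limma-voom called 1 of 18, 1 of 38, 0 of 22 and 1 of 19. Over all genes DESeq2 called 164 higher and 467 lower, and limma-voom called 318 higher and 455 lower of the 15490 tested.

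The mean profile of CD3D, CD3E, CD3G and CD247 across the libraries, as log2 CPM less each gene's own mean, was -0.034, 0.011 and -0.046 in BPAF and 0.052, 0.014 and 0.0027 in DMSO. The DMSO replicate 1 library was highest and the BPAF replicate 3 library lowest. Among 12540 candidate genes, the nearest to it by root mean square difference over the 6 libraries were IMPDH2 (0.0037), CCT4 (0.0067), OAZ1 (0.0073), GPI (0.0094) and PCBP1 (0.0096). CD247 itself lay at 0.016 and CD3E at 0.017, behind 42 and 48 of the candidates, and 2564 candidates lay within 0.05. CD3G lay at 0.020 and CD3D at 0.029, behind 107 and 488. The profile is the mean of these CD3 genes, so their closeness to it is partly built in. Genes with so little variation share their profile widely, and all are measured in the same 6 libraries. TRBC1 was at 0.035 and CD2 at 0.047, whereas TRBC2 at 0.082, TRAC at 0.094, CD4 at 0.128 and TRAT1 at 0.142 followed it less closely.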

How the data were processed

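Estimated counts (with decimals) and TPM were taken as deposited by the authors, for 3 libraries per group. Per the submitters' processing notes FastQC, cutadapt, HISAT2 and featureCounts were used with GRCh38 and hg38, without versions. The origin of the decimals, the annotation and the strand setting are not given in the sources used here. Of 60856 features, 192 were assembled loci without a gene identifier (0.243 to 0.271% of counts), and 58396 identifiers matched GENCODE release 29, which gave coordinates and exon lengths. Symbols came from the supplied reference tables.

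Rounded estimated counts passed filterByExpr and TMM scaling before the test of edgeR 4.0.16 (robust quasi-likelihood test, no covariate, R 4.3.3), with p adjusted by Benjamini-Hochberg over all 15490 tested genes and a threshold of 0.05. SE was the log2 fold change divided by the square root of F. CPM levels used the unrounded counts. Shares and ratios were compared by two-sided exact permutation over the 6 libraries (smallest p 0.1; Python 3.11.15, numpy 2.4.6). P-values measure the spread between these libraries. The alternatives covered scaling (RLE, upper quartile), filtering, the tool (DESeq2 1.42.0, limma-voom 3.58.1), the unit (limma on log2 TPM, pseudocount 1 or 0.1), a block for replicate number, and leaving out each library. Tests were checked on simulated counts. Chi-square per degree of freedom was 2.377 to 4.042 between libraries of a group and 3.821 to 7.584 between libraries of different groups. No library was thus a copy or re-sequencing of another. Such values cannot tell separate cultures from separate libraries of the same RNA.

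The members and gene lists were chosen with earlier results of these data known. Named were all members, every called gene of a list or otherwise the 2 with the smallest p, the leading segments of each locus by TPM, and the 5 genes nearest the CD3 profile. Some items are not reported here.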

Additional observations from a re-analysis of the deposited data

How the results depend on the processing

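None of the 10 receptor genes was called in any of 15 alternative fits (150 values, 3 of which, for the genes of lowest count in DESeq2, had no adjusted p), and the smallest adjusted p was 0.0561, for TRBC2 with a library left out. Fold changes kept their sign except for 8 values, all on the deposited TPM, where the median of all tested genes was 0.078 with a pseudocount of 1 and 0.089 with 0.1. On log2(TPM + 1) and log2(TPM + 0.1), CD3E was 0.052 and 0.0521, CD3G 0.058 and 0.0587, CD247 0.0114 and 0.0115, and CD4 0.0312 and 0.0397. Those fits likewise gave ELF1 0.0248 and 0.0252, MYB 0.0161 and 0.0161, TRAV8-4 0.0321 and 0.0331, and CD8B 0.0787 and 0.117, and they called 1 and 2 genes higher in BPAF and 0 and 0 lower. At those values SPN (0.247 and 0.251), SIT1 (-0.193 and -0.196) and HSPA5 (-0.0478 and -0.048) did not pass the test. On TPM the log2 difference was 0.00315 for the TRBC1 plus TRBC2 sum, against -0.0166 on CPM. It was 0.0145 for the sum of the 10 genes, against -0.0298, and 0.00665 for CD3G over CD3E, against -0.0143. Each of these thus changed sign with the scale. DESeq2 called 164 genes higher. CD8B was 0.00119 with upper quartile scaling and 0.102 with voom.

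Same-numbered libraries did not deviate together (correlations 0.008, -0.026 and 0.028), and not every library correlated best with its own number. With the replicate number as a block, 377 genes were called higher and 449 lower, and CD8B was 0.0579.

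With 1 library left out, 147 to 368 genes were called higher and 175 to 541 lower, the fewest of both without BPAF replicate 1. Over 1.5 times fewer in both directions also resulted without BPAF replicate 3 (165 and 227) and DMSO replicate 1 (212 and 270). Fold changes of the receptor genes then ran from -0.0835 to -0.0292 for CD3D, -0.0433 to -0.0097 for CD3E, -0.0635 to -0.0183 for CD3G, -0.0764 to -0.0477 for CD247, -0.163 to -0.0667 for TRAC, -0.0936 to -0.0243 for TRBC1, 0.061 to 0.122 for TRBC2, -0.238 to -0.0912 for TRAT1, -0.193 to -0.0179 for CD4 and 0.0035 to 0.0376 for CD2. The summed TRBC1 and TRBC2 differed by -0.0411 to 0.0217 (above 0 without BPAF replicate 3) and CD3G over CD3E by -0.0308 to 0.0042. The TRBC1 share stayed lower in BPAF, by -2.84 to -1.83 percentage points. Low-count genes changed sign: TRAV18 -0.543 to 0.722, TRBV7-2 -0.261 to 0.0373, TRBV28 -0.165 to 0.385, TRGV5 -0.233 to 0.0157, CD8B -0.34 to 0.667 and PTCRA -0.297 to 0.0837. The adjusted p of TRGV4 ran from 0.0400 to 0.242, that of TRBV12-3 from 0.0438 to 0.533 and that of ELF1 from 0.0465 to 0.294. The causes of these dependences were not tested. The intervals of TRAC, TRAT1 and CD4 were the widest of the 10 genes.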
